A study of Drosophila melanogaster with 2 samples.

Results

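The data are peaks of Oaz binding at 7 genes of the tracheal fibroblast growth factor (FGF) pathway in whole Drosophila melanogaster embryos. The genes were taken by name as bnl, btl, stumps, sty, trh, vvl and rib, out of 13968 protein-coding genes on the chromosome arms. A peak was given to a gene when its summit lay in the gene body or within 20 kb of either end, and 19 of 2772 arm peaks in the optimal list of the series did so. Embryos were 0 to 24 hours old and carried Oaz, a zinc-finger protein, fused to eGFP, and chromatin was precipitated with an anti-GFP antibody, although another label names Oaz as the antibody's target. The 2 biological replicates form a single group, without embryos of another genotype, age or treatment to set against them, so values below are set beside those of all genes or all peaks. The labels do not give the copy number of the fusion or its promoter.

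Branchless, the FGF encoded by bnl, is secreted by cells near the growing tracheal branches and guides their migration. Its receptor Breathless (btl) sits on tracheal cells and signals through the adaptor Stumps to the Ras-MAPK relay, and Sprouty (sty) is an inhibitor that limits branching. Trachealess (trh) and Ventral veins lacking (vvl) are transcription factors that set up the tracheal placodes and btl expression, and Ribbon (rib) is a BTB-domain nuclear protein needed for branch and tube formation. Tracheal cells are a small part of a whole embryo. A strong site in few cells and a weak site in many cannot be told apart here, and no peak can be placed in a tissue.

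Peaks at the pathway genes were spread unevenly, with the highest number around the inhibitor. The window of sty held 8 peaks, rib 4, bnl 3, stumps 2, trh 1, vvl 1 and btl 0. A summit was thus present for 6 of 7 members (85.7%), where 65.4% of all protein-coding genes had one in the same kind of window. The member windows were 44.8 to 82.7 kb long and the median over all genes was 42.2 kb. Per length, the member windows held 44.5 peaks per Mb and the arms 20.2 per Mb, a ratio of 2.21 (exact Poisson 95% interval 1.33 to 3.45, counting error only and taking peaks as independent). The arm value is taken over the full arms, chromosomes 4 and Y included (137.5 Mb), and not over gene windows, where the median gene had 1 peak. Without sty the ratio was 1.50 over 11 peaks, a comparison chosen after the values were seen and given without an interval. Gene bodies of 3 members (42.9%) held a summit, namely bnl, sty and rib, against 8.50% of all genes. These 3 gene bodies were 11.3 to 42.7 kb long, where the median over all genes was 2.16 kb, and per length the member gene bodies held 1.69 times the peak density of the arms. No test was made of these counts, and they are descriptions of the lists.

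**Figure D1:**
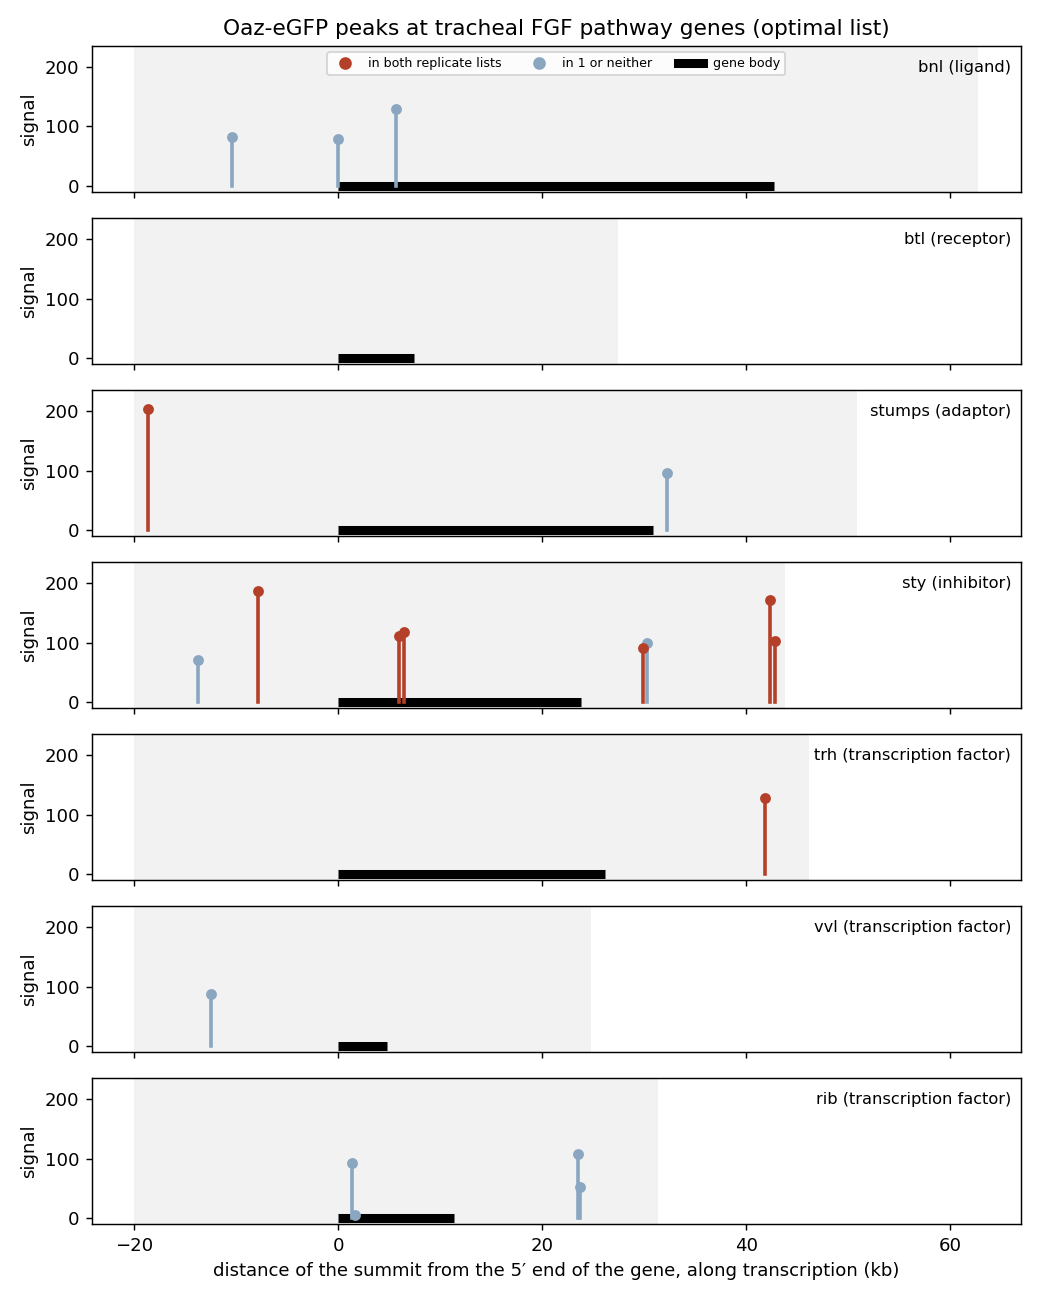
Peaks of the optimal list around the 7 genes, each drawn at its summit's distance in kb from the gene's 5′ end along transcription, with the deposited signal as height (red in both replicate lists, blue in 1 or neither). The black bar is the gene body and grey the window searched. The window of sty holds 8 peaks, several in close pairs, and that of btl holds 0.

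**Figure D2:**
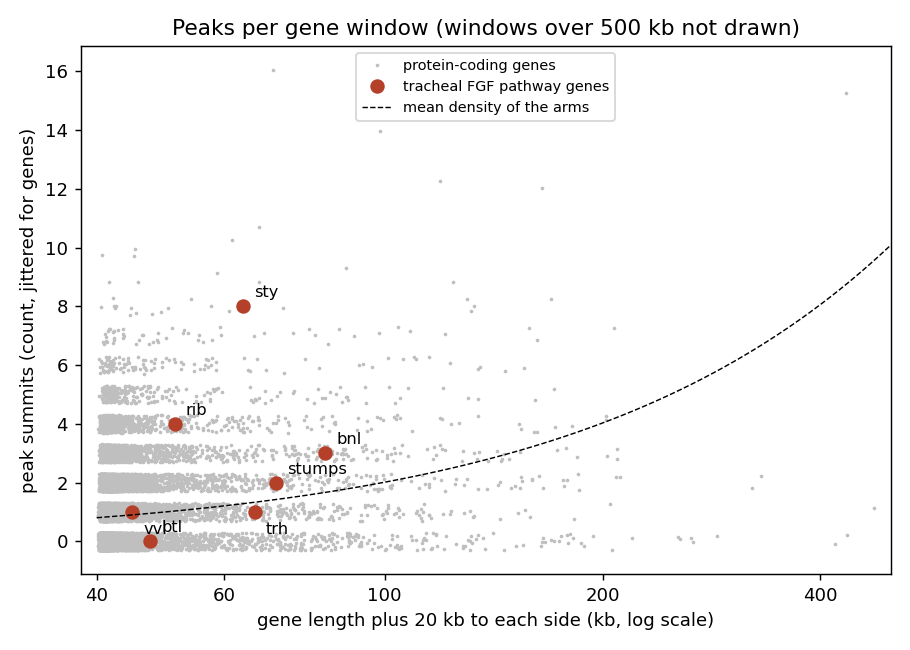
Summits per gene window against window length on a log scale, for protein-coding genes (grey, jittered; windows over 500 kb not drawn) and the 7 pathway genes (red), with a dashed line at the mean arm density. The count of 8 at sty stands above most genes, and those of trh, vvl and btl lie near or under the line.

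Member peaks were of ordinary strength. Their deposited signal, a value from the authors' peak calling whose scale is not stated, ran from 5.90 to 202.6 with a median of 99.2. Over all arm peaks the median was 103, the middle 50% ran from 75.5 to 163, and the highest value was 1849. Above the median of all peaks were 9 of the 19, and 3 exceeded the upper of these quartiles. Each of the 19 peaks was 330 bp wide, as were 87.1% of all arm peaks. A global irreproducible discovery rate (IDR) is low where the compared peak sets place a peak at like ranks. An IDR of 0.001 or less was reached by 8 of 19 (42.1%), against 46.1% of all peaks. An IDR within the list's threshold of 0.01 does not mean that both replicates listed the peak. Of all arm peaks in the optimal list, 27.4% were in neither replicate list.

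Most member peaks lay away from start sites of the pathway genes. The genes bnl and sty, 2 of 7 members (28.6%), had a summit at most 1000 bp from one of their own transcription start sites (TSSs), where 14.0% of all genes had one. Of the 19 summits, 5 (26.3%) lay within 500 bp of any protein-coding TSS, against 44.1% of all peaks, and only that of bnl was a member's own TSS. Introns held 9 (47.4%), against 36.7% of all peaks, and 5 (26.3%) were intergenic, against 16.2%. For 10 of the 19 peaks the nearest protein-coding TSS was that of another gene, and no target gene was assigned.

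The ligand gene bnl (FBgn0014135) lies on the minus strand at chr3R:19794073-19836817 in dm6. Its strongest peak, chr3R:19830985-19831314, lay in an intron 5667 bp downstream of the single TSS, with a signal of 129.8 and rank 994 of 2846 listed peaks. In the replicates this site had a signal of 93.3 in replicate 1, where it ranked 747 of all 130607 ranked regions and was in the thresholded list, and 38.3 in replicate 2, where it ranked 1980 of 81899 and was not. The stretch from 100 bp left to 100 bp right of the summit, chr3R:19831050-19831250, is shown because it is the intronic site of the ligand. It is written on the plus strand, as are the windows below, with capitals at matches on either strand to TACGTG, the element bound by Trh with its partner Tgo, to ACAGTG, and to the TATA box TATAAA. Here the capitals mark 2 TATA box matches.
bnl peak 1: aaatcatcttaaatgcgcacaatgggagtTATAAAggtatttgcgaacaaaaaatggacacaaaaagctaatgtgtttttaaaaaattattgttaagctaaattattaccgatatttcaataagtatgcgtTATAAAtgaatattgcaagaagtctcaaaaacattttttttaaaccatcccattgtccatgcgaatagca

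A second bnl peak, chr3R:19836692-19837021, had its summit 40 bp upstream of the TSS, with a signal of 78.5 and rank 2031. Its signals were 40.3 in replicate 1 and 29.2 in replicate 2, and it passed the threshold in neither list. The third, chr3R:19847064-19847393, lay 10412 bp upstream and 82 bp from the TSS of MICU3, a gene of the mitochondrial calcium uptake family, with a signal of 82.8. It had 30.2 in replicate 1 and 39.9 in replicate 2, was in neither replicate list, and overlapped no peak of the conservative list. All 3 peaks of the ligand gene thus missed at least 1 replicate list, though 2 of them were in the conservative list. Replicate 2 listed another peak, chr3R:19848558-19848861, with 45.9 there and 18.4 in replicate 1, that was not in the optimal list.

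The receptor gene btl (FBgn0285896), at chr3L:14075772-14083229 on the plus strand, had no peak in its window in any thresholded list. The nearest optimal-list summit was 25.7 kb from the gene. At the mean density of the arms a window of 47.5 kb would hold 0.956 peaks, and 34.6% of all genes had none in theirs. In the ranked list of both replicates, which holds 150275 mostly unthresholded regions, the strongest region of the window was chr3L:14082435-14082764 in coding sequence, with a signal of 58.1, rank 4141 and an IDR of 0.0957. Within 1000 bp of the 2 btl start sites the highest ranked signal was 39.5, at rank 17359. In the replicates these start sites reached 19.8 in replicate 1 and 21.6 in replicate 2, below every member peak that either replicate listed.

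The adaptor gene stumps (FBgn0020299), at chr3R:14577217-14608079 on the plus strand, had 2 peaks outside the gene body, and the stronger was the strongest of all 19. That peak, chr3R:14558414-14558743, lay 18638 bp upstream of stumps and 275 bp from the TSS of Pde6, a phosphodiesterase gene, with a signal of 202.6 and rank 462. It was in both replicate lists, with 100.5 in replicate 1 and 96.0 in replicate 2. Its window, chr3R:14558479-14558679, is shown as the strongest member site and because it holds both a TACGTG and, on the other strand, an ACAGTG. These were centred 56 bp to the left and 92 bp to the right of the summit.
stumps peak 1: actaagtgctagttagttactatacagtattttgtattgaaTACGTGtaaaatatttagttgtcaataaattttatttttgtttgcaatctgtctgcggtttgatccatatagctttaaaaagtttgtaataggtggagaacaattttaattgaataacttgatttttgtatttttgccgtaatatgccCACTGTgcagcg

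The other stumps peak, chr3R:14609288-14609617, lay 1374 bp past the 3′ end of stumps and 189 bp from the TSS of CG14853. Its signal was 95.4 overall. Replicate 1 gave 48.6 and did not list it, and replicate 2 gave 61.5 and did. Neither peak was nearest to a start site of stumps itself, and the highest ranked signal within 1000 bp of the 5 stumps start sites was 51.2.

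The inhibitor gene sty (FBgn0014388), on the minus strand at chr3L:3401153-3424935, had the most peaks and, by number, the most in both replicate lists. As many summits or more were found in the windows of 36 of 13968 genes (0.258%). Upstream of the gene lay 2 of the 8 peaks, inside it 2 and past its end 4. Of the 8, 7 were in the list of replicate 1, 6 in that of replicate 2 and 6 in both. The window of 63.8 kb overlaps 1 other protein-coding gene, eIF5B, which encodes a translation initiation factor and whose introns hold the 2 upstream peaks. At the mean density of the arms it would hold 1.29 peaks.

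The strongest sty peak, chr3L:3432689-3433018, lay 7919 bp upstream with a signal of 186.7 and rank 537. Its signals of 119.9 in replicate 1 and 67.5 in replicate 2 placed it in both lists. Within sty, the intronic peaks chr3L:3418339-3418668 and chr3L:3418799-3419128 lay 543 and 1003 bp upstream of the internal TSS, with signals of 117.9 and 110.2. The first had 76.9 in replicate 1 and 53.1 in replicate 2, and the second 70.4 in replicate 1 and 54.2 in replicate 2, so that both were listed in both. The pair is shown because its summits, 460 bp apart, are the nearest of the 19 to a sty start site, and because they differ in base composition, with 53.2% G and C in the first window (chr3L:3418404-3418604) and 35.3% in the second (chr3L:3418864-3419064), which holds 1 TATA box match.
sty peak 3: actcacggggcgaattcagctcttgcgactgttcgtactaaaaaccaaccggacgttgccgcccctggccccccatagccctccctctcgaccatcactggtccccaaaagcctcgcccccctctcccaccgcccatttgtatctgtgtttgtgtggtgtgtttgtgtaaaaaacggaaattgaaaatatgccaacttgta
sty peak 4: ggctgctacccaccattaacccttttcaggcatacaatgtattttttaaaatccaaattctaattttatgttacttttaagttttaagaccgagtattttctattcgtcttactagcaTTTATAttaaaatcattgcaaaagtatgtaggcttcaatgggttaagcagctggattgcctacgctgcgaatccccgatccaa

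Downstream of sty, 2 more close pairs of peaks lay in intergenic sequence. The pair chr3L:3382478-3382807 and chr3L:3381922-3382251 was 18510 and 19066 bp past the 3′ end, near the edge of the window, with signals of 171.1 and 103.4. In replicate 1 they had 81.8 and 68.2, and in replicate 2 they had 89.2 and 38.8, and both were in both lists. Their nearest TSS was that of Ids, which encodes a lysosomal sulfatase, at 4375 and 3819 bp. The other pair, chr3L:3394462-3394791 and chr3L:3394944-3395273, lay 6526 and 6044 bp past the gene with signals of 99.2 and 91.4. The first had 74.5 in replicate 1 and no ranked region in replicate 2 that overlapped it, and the second had 78.7 in replicate 1 and 36.8 in replicate 2. The weakest sty peak, chr3L:3438486-3438815, reached 70.7 in the series list, 48.4 in replicate 1 and 27.7 in replicate 2, and neither replicate listed it.

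Close pairs were frequent among the member peaks. Another summit of the list lay within 600 bp of 10 of the 19 (52.6%), 6 of them at sty and 4 at rib, against 11.7% of all arm peaks. The distance was chosen after the values were seen. With only the strongest of overlapping peaks kept, it was 6 of 17 member peaks, all at sty, against 3.54% of all.

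The transcription factor gene trh (FBgn0262139) lies at chr3L:366524-392633 on the minus strand and had 1 peak, far from its start sites. This peak, chr3L:350631-350960, lay 15728 bp past the 3′ end and 279 bp from a TSS of Ptpmeg, a protein tyrosine phosphatase gene, with a signal of 127.5 and rank 1023. It was in both replicate lists with 60.5 in replicate 1 and 63.4 in replicate 2. Its window, chr3L:350696-350896, is shown because it held 3 TATA box matches, more than any other member window.
trh peak 1: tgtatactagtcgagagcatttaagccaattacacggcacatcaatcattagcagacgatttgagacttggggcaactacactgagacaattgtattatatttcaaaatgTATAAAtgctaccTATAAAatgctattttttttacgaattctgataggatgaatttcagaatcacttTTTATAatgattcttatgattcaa

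Replicate 2 alone also listed a peak at the internal trh promoter, chr3L:377548-377851, 384 bp upstream of that TSS. Its signal was 46.5 in replicate 2, at rank 1347 of 1680 listed peaks, and 28.8 in replicate 1, where it ranked 10466 among all ranked regions. In the ranked list of both replicates it had a signal of 72.2 and an IDR of 0.208, which is outside the threshold of 0.01.

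The POU-domain factor gene vvl (FBgn0086680), at chr3L:6790158-6794941 on the plus strand, had 1 intergenic peak. It lay 12499 bp upstream at chr3L:6777494-6777823, with a signal of 88.1 and rank 1732, and vvl had the nearest TSS. It was listed in replicate 2, with 47.0, and not in replicate 1, with 34.2. The ranked list of both replicates also held a region at the vvl promoter, chr3L:6789583-6789912, 410 bp upstream of the TSS. Its signal was 62.8 and its IDR 0.0108, just outside the threshold of 0.01. No other protein-coding gene overlaps the window of vvl.

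The gene rib (FBgn0003254), at chr2R:19270078-19281396 on the plus strand, had 4 listed peaks that form 2 overlapping pairs. The pair in its intron, chr2R:19271290-19271619 and chr2R:19271497-19271826, lay 1377 and 1584 bp downstream of the first TSS with signals of 93.0 and 5.90. Behind both was the same region in each replicate, with 37.9 in replicate 1 and 45.7 in replicate 2. The other pair, chr2R:19293379-19293708 and chr2R:19293581-19293910, lay in an intron of Tab2, an adaptor gene of immune signalling, 12148 and 12350 bp past rib, with signals of 107.3 and 51.7. The region behind this pair had 61.3 in replicate 1 and 53.6 in replicate 2. All 4 peaks were supported by the list of replicate 2 and none by that of replicate 1, and with the strongest of each overlapping pair kept, rib had 2 peaks. In the conservative list rib had 3, without the weaker peak of the pair in Tab2.

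The share of member peaks in both replicate lists was near that of the whole list, but came mostly from sty, and other shares differed. Both replicate lists held 8 of the 19 member peaks (42.1%, Wilson 95% interval 23.1 to 63.7, counting error only), 6 of them at sty, 1 at stumps and 1 at trh, against 45.5% of all arm peaks. Neither list held 3 (15.8%), against 27.4% of all. In replicate 2 alone were 6 (31.6%), against 11.5% of all, but 4 of these are the rib peaks, which rest on 2 replicate regions. Among the 8 peaks in both lists the signal was higher in replicate 1 at 6, and log2(replicate 1 / replicate 2) had a median of 0.46 and a range of -0.12 to 1.09. Over all 1260 such arm peaks replicate 1 was higher at 84.0%, and this median was 0.36 with an SD across peaks of 0.36. Peaks of 1 embryo collection share their library and are not replicates, so no test was made.

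**Figure D3:**
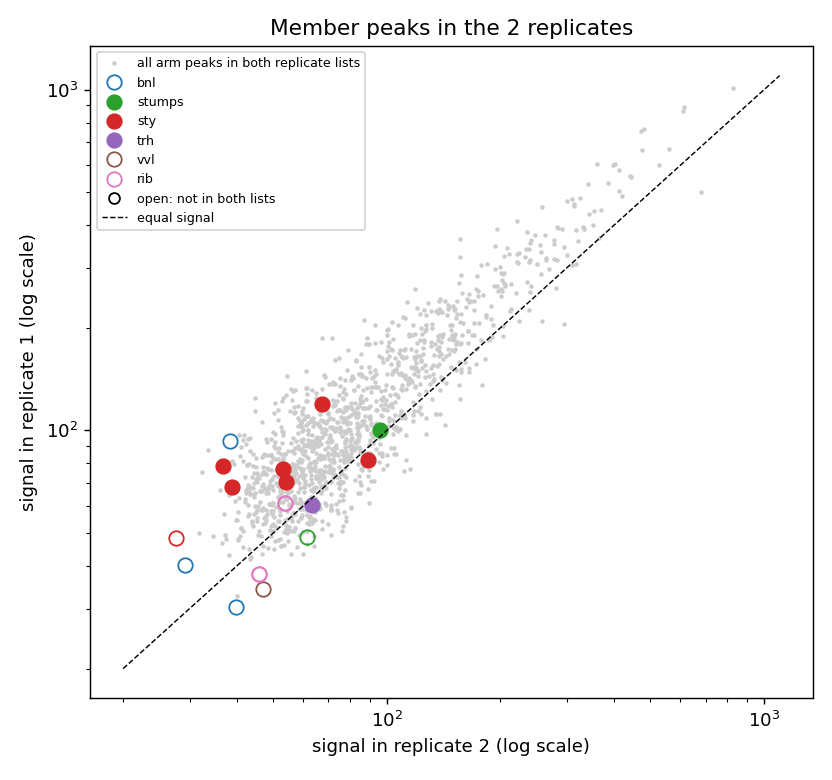
Signal in replicate 1 against signal in replicate 2, both on log scales, for member peaks (coloured by gene, open where not in both lists) and for the 1260 arm peaks in both lists (grey). Of the 19 member peaks 18 have a value in both replicates, and each overlapping pair at rib falls on 1 point. The filled points, in both lists, belong to sty, stumps and trh.

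Sequence at the member summits was set beside that at all arm summits, in windows of 100 bp to each side on both strands. ACAGTG was in 5 of 19 windows (26.3%), at bnl, stumps and rib, against 22.2% of all, and in none of the 8 at sty. Of these 5 windows, 3 were at rib. The TATA box TATAAA was in 8 (42.1%) against 35.3%, and GAGAG, the core bound by GAGA factor, in 7 (36.8%) against 21.2%. For GAGAG this was 2 (10.5%) against 8.51% with 50 bp to each side, and 12 (63.2%) against 45.6% with 200 bp. TACGTG was in 2 (10.5%), at the bnl peak beside MICU3 and at the strongest stumps peak, against 4.40% of all. With 200 bp to each side it was in 6 (31.6%), at bnl, stumps, sty and rib, against 9.24%, and with 50 bp to each side in 0 against 1.88%. The core ACGTG, which lies within TACGTG, was in 3 (15.8%) against 15.3%. TATCGATA, the DNA replication-related element, was in 1, at sty, against 2.78%. With 100 bp to each side, no member window held the POU octamer ATGCAAAT, the STAT site TTCNNNGAA, the ETS core CCGGAAG, the M1BP site GGTCACACT, the Zelda site CAGGTAG, the E-box CACGTG or GCACCC, a site described for vertebrate relatives of Oaz, which 1.01% to 5.45% of all windows held. With 200 bp to each side, TTCNNNGAA was in 2 (10.5%) against 10.6% of all, and GCACCC in 2 (10.5%) against 9.85%. The median share of G and C was 33.3% in member windows (23.9% to 59.2%) and 35.3% in all windows. With 19 windows, 1 match is over 5 percentage points, so these shares are coarse.

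Other genes of tracheal development and FGF signalling had peaks in their windows at 42 of 53 (79.2%), and a summit within 1000 bp of a TSS at 10 of 53 (18.9%). Over all genes these shares were 65.4% and 14.0%, and they stand beside each list count below. Both tracheal counts include dom, whose place in these lists is in doubt, as described below. The window shares of early regulators (70.0%), terminal and fusion cell genes (66.7%) and tube wall genes (66.7%) were near the share over all genes. The median window of these 53 genes was 54.6 kb, longer than that of all genes. For most of the 42 genes the TSS nearest to the strongest window peak was that of another gene. A summit in the gene body was found at 19 of the 53, against 8.50% of all genes, a share not set for gene length. Among the other FGF genes, ths, an FGF ligand gene, had 4 peaks, the strongest of signal 205.5 in its own intron. The gene of its companion ligand, pyr, had 1 of 63.7. Their receptor gene htl, like btl, had 0.

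The Ras-MAPK relay, through which the receptor signals, had a window peak at 9 of 10 genes and a TSS peak at 2. Raf, the kinase above MEK, had 9 peaks, 8 of them in the gene, with the strongest at 370.8 and 1 of 105.2 at 824 bp from a TSS. The repressor gene aop, an ETS factor restrained by MAPK, had a peak of 84.8 at 899 bp. The strongest peak in the window of Sos, a Ras activator, had 1004 and lay in the promoter of CenG1A, 21645 bp from the TSS of Sos. Genes for heparan sulfate and receptor traffic, which FGF signalling needs, had a window peak at 10 of 10 and a TSS peak at 3. These were dlp, a glypican gene (145.1 at 138 bp), sgl (99.3 at 758 bp) and sotv (86.3 at 83 bp), and the strongest window peak of this list, 345.2 near sfl, lay at the promoter of Bulli.

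The list of early tracheal regulators had a window peak at 7 of 10 genes and a TSS peak at 2. The TSS peaks were at Stat92E, the STAT factor (142.3 at 957 bp), and dom (88.4 at 129 bp). The gene matched to dom (FBgn0020306, on 2R) is domino and not the receptor gene domeless. It is not shown to be a tracheal regulator, and the counts of this list include it. The spalt genes salm and salr and the gene knrl, which encode branch identity factors, had 0. The window of tgo, the gene of the Trh partner, held 1 peak of 183.3, nearest to neur, and that of sima held 341.0 at the promoter of RpL32. Terminal and fusion cell genes had a window peak at 4 of 6, with the strongest, 455.1, near bs and closest to slbo. The cadherin gene shg had a TSS peak of 78.5 at 124 bp and a stronger window peak of 225.7 at the promoter of CG10527. Genes for the tube wall and luminal matrix had 8 of 12, with 558.7 near pyd, in an intron of CG9837, 403.1 near pio, closest to the TSS of Adck1, and a TSS peak at crb (87.2 at 980 bp).

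Both hypoxia genes had window peaks, and Hph, the oxygen-sensing prolyl hydroxylase, had a TSS peak of 97.8 at 161 bp. The strongest near Vhl had 218.5 and lay in the 5′ UTR of Fbl6, 9539 bp from the TSS of Vhl. Markers of other germ layers and cell types had a window peak at 7 of 10 and a TSS peak at 3. These were elav, a neuronal RNA-binding protein (473.4 at 277 bp), Mef2, a muscle factor (82.0 at 70 bp), and srp (65.5 at 801 bp). The window of Mef2 also held a peak of 539.9, at the promoter of Pal1. The tracheal lists and these markers were not tested against each other.

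**Figure D4:**
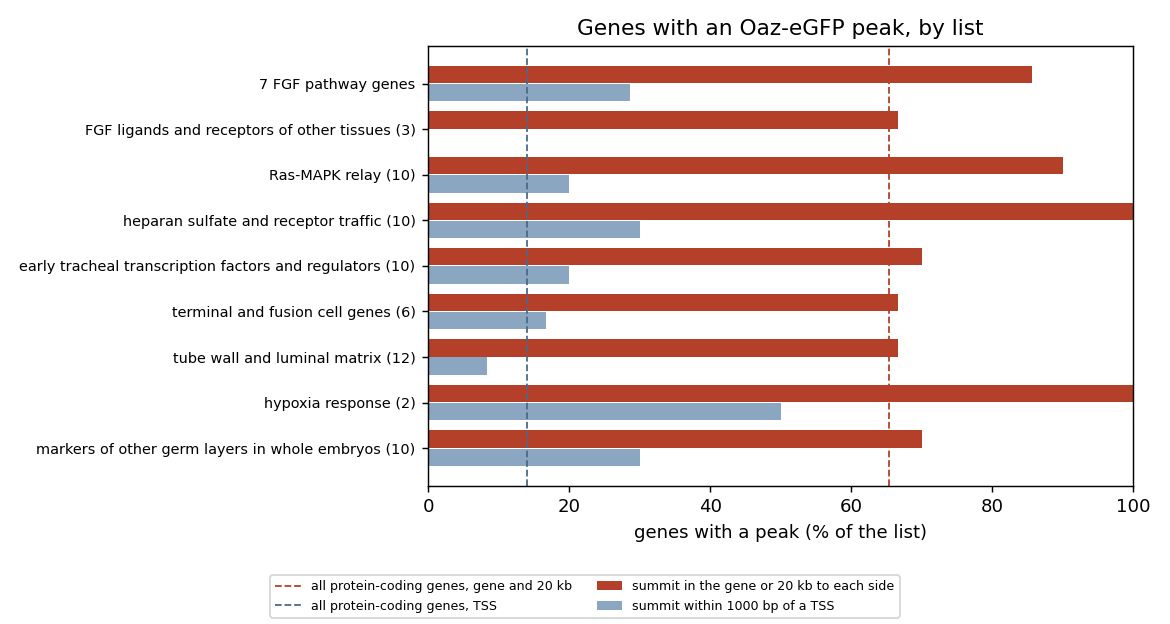
Share of genes with a summit in the gene or 20 kb to each side (red) and within 1000 bp of a TSS (blue), in % of each list, with the number of genes in brackets; dashed lines give all protein-coding genes. Lists hold 2 to 12 genes, so that 1 gene moves a bar by many percentage points.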

How the data were processed

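Chromatin immunoprecipitation with sequencing was done on 2 biological replicates of Oaz-eGFP embryos, on chromatin sonicated to a size range that the labels give as 200 to 800 bp. Per the text deposited with the samples, the series lists came from alignments of both replicates and a control on dm6, and replicate lists from 1 replicate and the control. For both the aligner and the program that called peaks, the names are not given in these sources. The signal of each peak is the authors' deposited value, used as it stands. Signals of series and replicate lists were not compared with each other. The deposited ranked lists give −log10 of the global IDR, which was 0.01 or less at each optimal-list peak on the arms. Per-library columns without names (8) were not used. Read depth is unknown.

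Genes and TSSs came from Ensembl release 115 and sequence from the RefSeq copy of Release 6, whose arms held every arm peak (0 past an end). The 74 optimal-list peaks on contigs were left out. Peaks were counted by summit, and support in a replicate was an overlap of 1 bp or more. Where a site is not in a replicate's list, its signal is that of the strongest overlapping region of that replicate's ranked list. The scripts were tested on simulated data.

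The members and lists were chosen with earlier results of these data known. Named were the 7 members with their peaks and, of the other genes, those with a TSS peak and the 2 with the strongest window peak of each list; a few genes without a peak, such as htl and salm, were named after their values were seen. Some list symbols were matched through synonyms. The symbol dom was matched to domino, and all counts of the tracheal lists include it. No test across genes was made. Alternatives changed the peak list, the IDR, overlapping peaks, the replicate, the window, the TSS distance and the motif window. Scripts ran in Python 3.11.15 with pandas 2.3.3 and numpy 2.4.6. Intervals came from scipy 1.17.1 and plots from matplotlib 3.10.9.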

Additional observations from a re-analysis of the deposited data

How the results depend on the processing

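No paired analysis was possible because there was 1 group. The 19 member peaks became 8 at an IDR of 0.001 or less, 9 with only peaks nearest to the member's TSS, 5 with the gene body only, 7 with 5 kb and 34 with 50 kb to each side, and 11 without sty. They numbered 10 to 14 with 1 replicate list alone, 10 without replicate 2 and 14 without replicate 1. The 2 members with a TSS peak became 1 at an IDR of 0.001 and with 500 bp, 3 with 2000 bp, and 1 to 2 with 1 replicate list alone. That list of replicate 2 held sty and trh. Support in both replicate lists was 87.5% at an IDR of 0.001. Other tracheal genes with a peak numbered 19 with the gene body only and 28 to 34 with 1 replicate list. The density ratio ran from 1.50 without sty to 2.70 without replicate 1, above 1 in each setting, and its range with 1 replicate list was 1.83 to 2.70. All settings other than the one without sty kept sty among the members. No interval was computed for the ratio without sty. No ratio was tested against 1, and none is shown to differ from it. The interval of the main ratio takes peaks as independent, while 10 of the 19 had another summit within 600 bp. The median log2 replicate ratio was 0.19 over the ranked lists. It was taken over the 18 member peaks with a value in both replicates, and not over the 8 in both lists. Each overlapping pair at rib shares its replicate regions, so its ratio enters for both peaks. The conservative list also held 19 member peaks, 17 of them with the same coordinates as in the optimal list, and 2 that the optimal list lacks, at sty and trh. Read depth was not available, so a missing peak, as at btl, is one not listed and not a site shown to be unbound.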
